A study of Homo sapiens with 6 samples.

Results

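Mitotic kinases and the proteins of the kinetochore, condensin and cytokinesis were described here as 54 genes, chosen by their symbols from the 58735 genes of the deposited count table. Mitotic kinesins with KIF symbols were not among them, whereas the kinetochore motor CENPE was. The RNA came from MDA-MB-231, a human triple-negative breast cancer (TNBC) cell line of genotype WT, and from ADRr cells, a subline that survived rising doses of Adriamycin (ADR, doxorubicin) and was then cloned by limiting dilution. Doxorubicin is an anthracycline that traps topoisomerase II on DNA. Each group had 3 RNA-seq libraries, and both groups were grown in DMEM with serum. The comparison asks which transcripts of the mitotic machinery differ between resistant and parent cells. The sources used here do not say whether drug was present at harvest, how dense the cultures were, or how many resistant clones were sequenced, so a difference may belong to a clone. The series text mentions time points that no sample label names, and the methods speak of biological replicates without saying whether the libraries of a group came from separate cultures. P-values therefore measure the spread between these libraries, which may be technical.

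Entry into mitosis is driven by CDK1 bound to cyclin B, which CDC25 phosphatases activate and in which PLK1 and the Aurora kinases take part. Condensin then compacts the chromosomes, kinetochores built on CENPA chromatin attach them to spindle microtubules, and the spindle checkpoint holds back the anaphase-promoting complex (APC/C) until every kinetochore is attached. Once CDC20 activates the APC/C, securin and cyclin B are destroyed, separase opens cohesin, and an actomyosin ring divides the cell. Most of these genes are transcribed late in the cell cycle, from S phase to mitosis, so their level in a culture also depends on how many of its cells are in those phases. In bulk RNA, fewer cells of a type and less RNA per cell cannot be told apart.

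Total counts per library ranged from 15983985 to 18272314. Counts are given below as CPM, counts scaled to one common library size with edgeR's TMM factors, which lay between 0.987 and 1.01. A gene was called when edgeR's quasi-likelihood test gave a Benjamini-Hochberg adjusted p of at most 0.05 over the 15242 genes tested and the fold change was at least 1.2. Levels of different genes are compared only as FPKM, fragments scaled by gene length and library size, which the authors deposited beside the counts. VIM, CD44, AXL, EGFR and KRT18, genes that MDA-MB-231 cells are known to express, were read in all 6 libraries, with a summed level of 607 to 629.9 FPKM in parent and 571 to 574 FPKM in ADRr libraries. The sums hide opposite changes, since 3 of the 5 genes were called lower and 2 higher. Mean AXL went from 318.9 FPKM in parent to 208.0 FPKM in ADRr cells, and mean CD44 from 83.7 to 145.8 FPKM. The hormone receptors ESR1 and PGR were at or near 0 FPKM, while ERBB2, EPCAM and CDH1 were read at up to 12.4 FPKM. Of the leukocyte genes PTPRC, CD53, LYZ, TYROBP, CD3E and CD79A none exceeded 0.157 FPKM. Of the endothelial and fibroblast genes PECAM1, VWF, CDH5, DCN, LUM and PDGFRB, DCN was at 0 in every library, and the sum of the list was 10.0 to 10.4 FPKM in parent and 2.01 to 2.45 FPKM in ADRr libraries, most of it from PDGFRB. The part of this list in the results below was not tested. The 3 markers of cycling cells MKI67, TOP2A and PCNA, which are not among the 54 genes, were lower in every ADRr library. MKI67 went from 545, 558 and 516 CPM to 252, 231 and 264 CPM, the topoisomerase gene TOP2A from 831, 906 and 778 CPM to 182, 187 and 184 CPM, and PCNA from 199, 188 and 198 CPM to 71.1, 72.7 and 70.8 CPM.

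All 54 mitotic genes passed the filter on low counts, and 47 of them were lower in ADRr cells. Across all tested genes 29.6% were called lower. BUB3 and SKA1, 2 of the 54, were higher, where 29.2% of tested genes were called higher. BORA, BUB1, UBE2C, HMMR and ECT2 were not called. The median log2 fold change of the 54 genes, ADRr minus parent, was -0.96, against -0.01 for all tested genes. It ranged from -2.19 for NCAPD2 to 0.50 for BUB3, with quartiles at -1.34 and -0.65. Together the 54 genes took 0.789 to 0.854% of the counts of a parent library and 0.448 to 0.464% of an ADRr library. In 49 of the 54 genes every ADRr library lay below every parent library, which held for 34.7% of tested genes. In 3 genes every ADRr library lay above every parent library, as in 34.5% of tested genes. At a stricter threshold than the study's log2(1.2), an absolute log2 fold change of 1.2, 20 of the 54 genes were lower and 0 higher. Of all tested genes 6.38% were lower and 7.31% higher at that threshold. In edgeR's test without any fold threshold, 49 genes were lower and 2 higher at an unadjusted p under 0.05, where 34.7% of tested genes were lower and 34% higher.

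**Figure D1:**
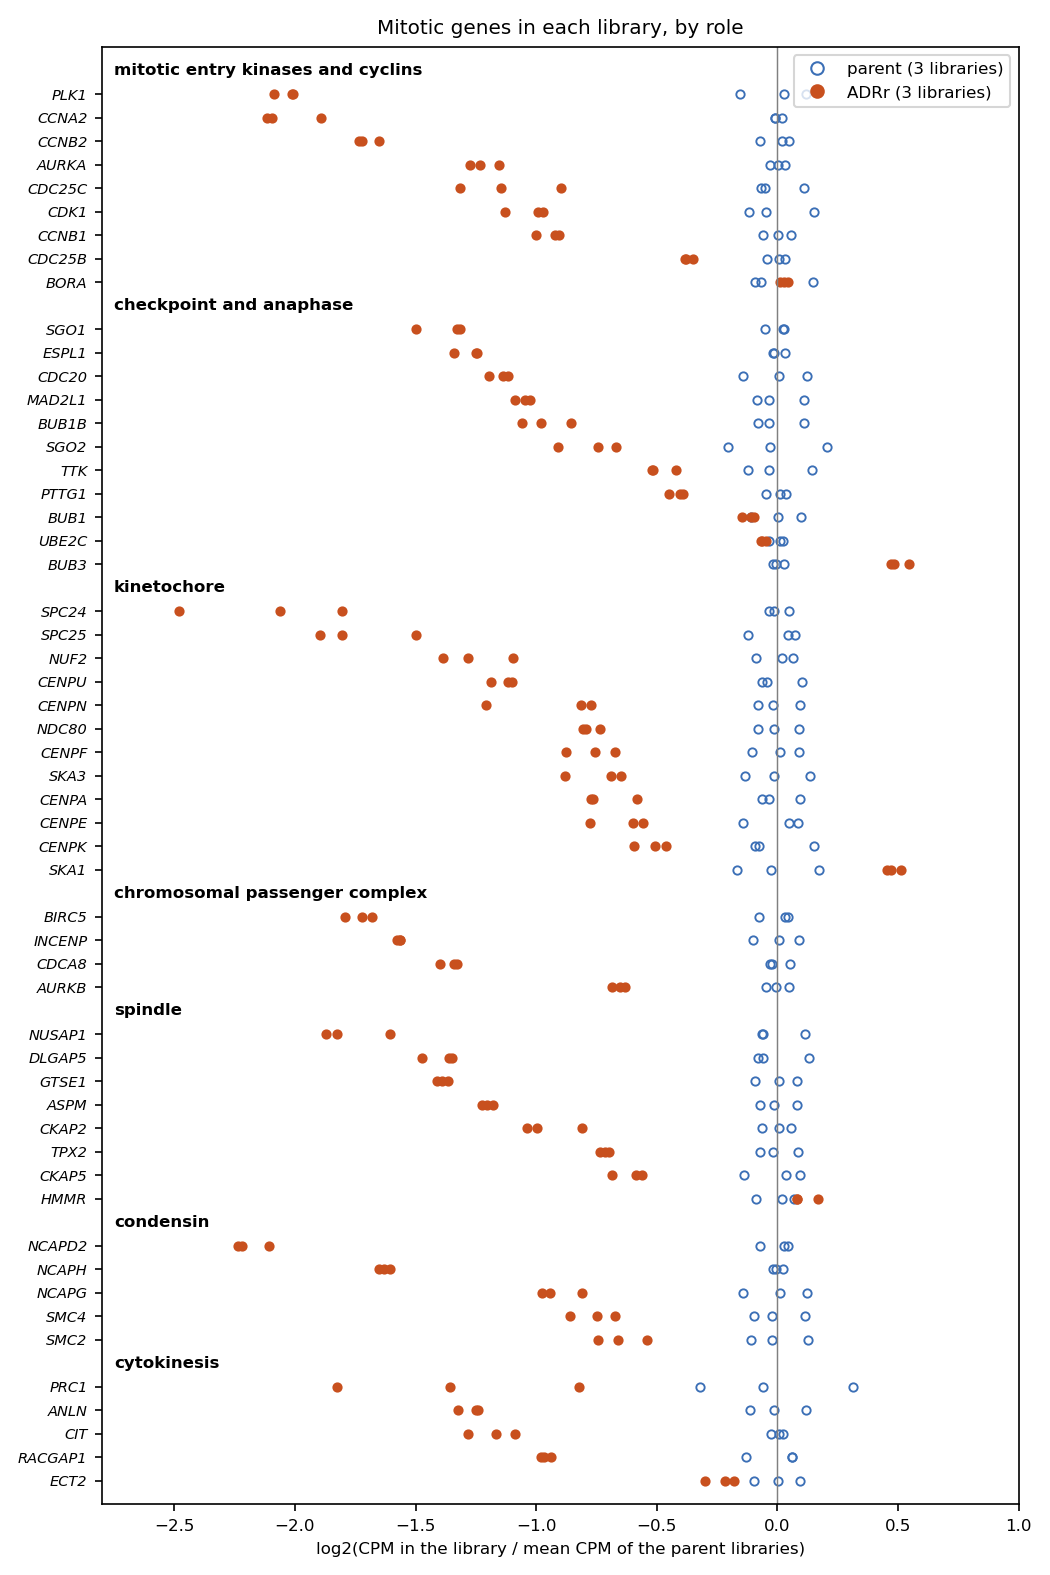
The plot shows each of the 54 mitotic genes in each library as the log2 of its CPM over the mean of the parent libraries, with open circles for the 3 parent and filled circles for the 3 ADRr libraries, grouped by role and ordered by fold change. The ADRr circles lie left of the parent circles in 49 genes and right of them in BUB3, SKA1 and HMMR.

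Before the groups are taken one by one, 5 promoters are shown, because many mitotic genes share short promoter elements through which their transcription is tied to the cell cycle. The cell cycle genes homology region (CHR), TTTGAA or TTTAAA, is bound by the DREAM complex in resting cells and by the MuvB core with MYBL2 and FOXM1 in dividing cells, and CCAAT is the site of the NF-Y factor. The windows run from 250 bases before to 50 bases after the start that RefSeq gives on GRCh38.p14, all on the plus strand, and capitals mark TTTGAA and TTTAAA as well as CCAAT on either strand, so that TTCAAA or ATTGG in capitals is a motif of the other strand. CCNB2 and PLK1 are shown as strongly lowered genes of the entry group, NCAPD2 as the gene with the lowest fold change, HMMR as a gene that was not called and whose window holds 2 CHR and 5 CCAAT motifs, and SKA1 as a gene that was higher.
CCNB2 (chr15:59104896-59105195): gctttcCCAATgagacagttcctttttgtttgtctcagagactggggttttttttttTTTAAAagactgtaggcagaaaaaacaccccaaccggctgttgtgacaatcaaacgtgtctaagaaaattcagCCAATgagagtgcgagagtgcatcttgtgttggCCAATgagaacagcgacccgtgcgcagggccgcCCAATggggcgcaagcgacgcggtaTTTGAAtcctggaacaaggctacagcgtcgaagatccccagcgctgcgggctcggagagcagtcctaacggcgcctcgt
PLK1 (chr16:23678639-23678938): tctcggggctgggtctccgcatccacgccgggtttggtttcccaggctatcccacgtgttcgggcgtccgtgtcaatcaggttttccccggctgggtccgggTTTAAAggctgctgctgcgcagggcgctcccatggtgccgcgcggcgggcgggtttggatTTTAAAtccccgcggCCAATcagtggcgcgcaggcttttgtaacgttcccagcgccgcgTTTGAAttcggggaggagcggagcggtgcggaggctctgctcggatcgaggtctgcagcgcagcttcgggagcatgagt
NCAPD2 (chr12:6493852-6494151): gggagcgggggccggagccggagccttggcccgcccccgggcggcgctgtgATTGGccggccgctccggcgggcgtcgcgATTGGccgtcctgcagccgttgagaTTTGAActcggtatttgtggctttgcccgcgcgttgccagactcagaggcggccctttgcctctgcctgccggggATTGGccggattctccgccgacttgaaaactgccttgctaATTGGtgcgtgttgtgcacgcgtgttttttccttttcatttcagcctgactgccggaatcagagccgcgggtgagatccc
HMMR (chr5:163460382-163460681): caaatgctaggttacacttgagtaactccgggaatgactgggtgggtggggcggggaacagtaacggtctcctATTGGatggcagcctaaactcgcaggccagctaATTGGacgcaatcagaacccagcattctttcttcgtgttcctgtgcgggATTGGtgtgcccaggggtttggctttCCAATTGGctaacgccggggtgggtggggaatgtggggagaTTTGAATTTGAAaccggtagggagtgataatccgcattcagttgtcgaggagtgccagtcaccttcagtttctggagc
SKA1 (chr18:50374796-50375095): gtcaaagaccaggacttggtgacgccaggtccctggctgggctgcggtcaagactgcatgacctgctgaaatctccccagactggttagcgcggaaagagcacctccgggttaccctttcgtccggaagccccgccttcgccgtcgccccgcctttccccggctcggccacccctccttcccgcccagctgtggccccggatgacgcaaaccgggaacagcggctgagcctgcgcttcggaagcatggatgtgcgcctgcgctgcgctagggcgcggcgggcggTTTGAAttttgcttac

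In CCNB2 a TTTGAA begins 29 bases before the start, and the CCAAT motifs nearest to this TTTGAA begin 54, 87 and 120 bases before the start. PLK1 has TTTGAA at the same distance of 29 bases, with 1 CCAAT at 73 bases. In HMMR 2 copies of TTTGAA stand side by side, 28 and 22 bases before the start. Its CCAAT motifs at 69 and 66 bases lie on opposite strands and overlap. SKA1 holds TTTGAA only after its start, at 34 bases, and no CCAAT. A window was found for 47 of the 54 genes, and AURKA, BUB3, TTK, UBE2C, BIRC5, TPX2 and RACGAP1 had none in the table used. A CHR motif occurred in 37 of the 47 windows (78.7%), against 15.4% of the 10469 windows of tested genes and 24.3% of all 27305 windows. Of the 2 forms, TTTGAA was found in 32 windows (68.1%, against 9.44% of tested genes and 15.4% of all) and TTTAAA in 13 (27.7%, against 7.47% and 12.3%). CCAAT was found in 34 windows (72.3%, against 36.3% and 35.7%), and CHR and CCAAT together in 27 (57.4%, against 6.25% and 9.49%). The E2F forms TTTGGCGC and TTTCGCGC, read on both strands like the others, occurred in 3 windows (6.38%, against 1.99% and 1.18%). These shares describe letters in a window and show no binding.

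Within the set, genes with and without a CHR motif had nearly the same median. The 37 genes with a CHR motif had a median log2 fold change of -1.03, and the 10 without one had -1.02. The 34 genes with CCAAT had a median of -1.16 and the 13 without it -0.78, a difference that was not tested. Called lower were 30 of the 34 with CCAAT and 12 of the 13 without it. Among the 5 genes with a window that were not called lower (BORA, BUB1, HMMR, ECT2 and SKA1), 4 held a CHR motif, and among the 42 called lower 33 did.

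The 9 genes of mitotic entry comprised the cyclins, CDK1, its activators and the kinases PLK1 and AURKA. In ADRr cells 8 of them fell, with a median log2 fold change over the 9 of -1.10. To set beside this group and each of those below, 29.6% of all tested genes were called lower and 29.2% higher. PLK1 (ENSG00000166851, chromosome 16, 23677656 to 23690367, plus strand, here and below on GRCh38 as GENCODE 29 places it), the Polo-like kinase of mitotic entry and exit, fell the most. Its level was 156, 129 and 146 CPM in parent replicates 1 to 3 and 33.8, 35.6 and 35.7 CPM in ADRr replicates 1 to 3, a log2 fold change of -2.03 ± 0.07 (SE, n = 3 per group, edgeR adjusted p = 9.89e-17). The highest ADRr library thus stood far below the lowest parent library. CCNA2, cyclin A2 of S phase and early mitosis, fell as much, from 230.4, 236 and 231 CPM to 62.6, 53.6 and 54.3 CPM, or to 24.5% of the parent level. The 2 mitotic B cyclins fell unequally. CCNB2 went from 122, 125 and 115 CPM to 38.4, 36.2 and 36.5 CPM, 30.8% of the parent level. CCNB1, the member of the group with the highest parent level per length (116 ± 4.91 FPKM, SD, n = 3), went from 315, 304 and 291 CPM to 160.2, 162 and 152 CPM, 52.0%. Their intervals did not touch, at -1.83 to -1.57 for CCNB2 and -1.05 to -0.83 for CCNB1 (95% confidence interval of the log2 fold change).

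CDK1, the kinase that the B cyclins activate, measured 184, 222 and 194 CPM in the parent libraries and 101, 91.7 and 102 CPM in the ADRr libraries, 49.0% of the parent level. This was close to the change of CCNB1. AURKA, the Aurora kinase of centrosomes and spindle poles, fell from 223, 213 and 218 CPM to 90.1, 98.1 and 92.9 CPM. Of the CDC25 phosphatases, which remove the inhibitory phosphates from CDK1, CDC25C fell to 46.5% (21.9, 24.4 and 21.6 CPM against 10.2, 9.10 and 12.2 CPM) and CDC25B to 77.3% (220.1, 213 and 224 CPM against 168, 172 and 169 CPM). BORA, the cofactor through which Aurora A activates PLK1, did not pass the test. It was read at 12.9, 15.2 and 13.1 CPM in the parent and 13.9, 13.8 and 14.1 CPM in the ADRr libraries, which overlapped, and its log2 fold change of 0.03 had a 95% confidence interval from -0.20 to 0.25. BORA shares 37.0% of its exon bases with DIS3 on the opposite strand, which rose by a log2 fold change of 0.79, and the strand setting of the counting is not given in the sources used here, so reads of both genes cannot be told apart there.

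Among the 11 genes of the spindle checkpoint and anaphase the calls were mixed. Of these, 8 fell, BUB3 rose, and BUB1 and UBE2C did not pass the test, with a median log2 fold change of -0.77. SGO1, shugoshin, which protects centromeric cohesin, fell the most, from 26.1, 26.0 and 24.7 CPM to 9.06, 10.3 and 10.2 CPM (log2 fold change -1.38 ± 0.10, SE, edgeR adjusted p = 4.62e-11). Its exons share 17.7% of their bases with the antisense gene SGO1-AS1, which rose by 2.12 on the log2 scale from a low level. The related SGO2 fell to 58.7% of its parent level (92.3, 109 and 81.8 CPM against 56.3, 50.3 and 59.3 CPM). Separase and its inhibitor moved by different amounts. ESPL1, separase, fell from 109.6, 109 and 113 CPM to 43.7, 46.7 and 46.5 CPM, 41.2% of the parent level, while PTTG1, securin, fell from 112, 116 and 118 CPM to 84.6, 88.1 and 87.1 CPM, 75.02%.

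CDC20, the activator of the APC/C that the checkpoint restrains, was read at 207, 187 and 224 CPM in parent and 93.6, 95.1 and 90.0 CPM in ADRr libraries. MAD2L1 (MAD2) and BUB1B (BUBR1) bind CDC20 in the mitotic checkpoint complex, and both fell to about the same extent as CDC20. MAD2L1 went from 110.3, 122 and 106 CPM to 53.2, 54.7 and 55.5 CPM and BUB1B from 79.5, 87.9 and 77.2 CPM to 41.3, 39.2 and 45.1 CPM, 48.3% and 51.4% of the parent level beside 45.0% for CDC20. TTK (MPS1), the kinase that starts checkpoint signalling at the kinetochore, fell less, from 61.5, 74.0 and 65.5 CPM to 50.01, 46.7 and 46.9 CPM. BUB3 (ENSG00000154473, chromosome 10, 123154277 to 123170467, plus strand), the WD40 protein that carries BUB1 and BUBR1 to kinetochores, rose instead. Its parent libraries measured 171, 175 and 169.6 CPM and its ADRr libraries 251, 238 and 240.1 CPM, a log2 fold change of 0.50 ± 0.05 (SE, n = 3 per group, edgeR adjusted p = 8.87e-09).

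BUB1, the checkpoint kinase that also marks centromeres by phosphorylating histone H2A, was read at 233, 249 and 216 CPM and 217, 210.3 and 216 CPM. The lowest parent library lay among the ADRr libraries. Its log2 fold change of -0.12 (interval -0.23 to -0.0025, edgeR adjusted p = 0.0669) was not called. UBE2C (ENSG00000175063, chromosome 20, 45812576 to 45816957, plus strand), the ubiquitin-conjugating enzyme of the APC/C, had the highest level per length of all 54 genes, at 166 ± 3.63 FPKM in parent and 159.8 ± 0.640 FPKM in ADRr cells (SD, n = 3). Per library it measured 219.7, 213 and 222 CPM and 209, 211 and 208 CPM. Although no ADRr library reached the lowest parent library, the difference was small, with a log2 fold change of -0.06 and an interval from -0.16 to 0.04 (edgeR adjusted p = 0.298).

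Of the 12 kinetochore genes 11 fell and SKA1 rose, with a median log2 fold change of -0.77. SPC24 (ENSG00000161888, chromosome 19, 11131520 to 11155808, minus strand) fell the most, from 47.7, 45.7 and 45.1 CPM to 8.28, 13.2 and 11.1 CPM (log2 fold change -2.09 ± 0.11, SE, edgeR adjusted p = 2.20e-13). SPC24 and SPC25 form the inner end of the rod-shaped NDC80 complex, whose outer end, made of NDC80 and NUF2, grips the microtubule. SPC25 fell from 28.7, 32.8 and 32.2 CPM to 8.39, 11.1 and 8.94 CPM, NUF2 from 82.2, 84.6 and 76.2 CPM to 33.3, 31.0 and 37.9 CPM, and NDC80 from 75.6, 84.9 and 79.1 CPM to 48.0, 45.6 and 46.1 CPM. On the FPKM scale the 2 genes of the inner end stood below those of the outer end in both groups. The means were 21.7 FPKM for NDC80, 23.6 for NUF2, 15.9 for SPC24 and 16.6 for SPC25 in parent cells, and 12.7, 9.95, 3.75 and 5.05 FPKM in ADRr cells, in the same order.

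**Figure D2:**
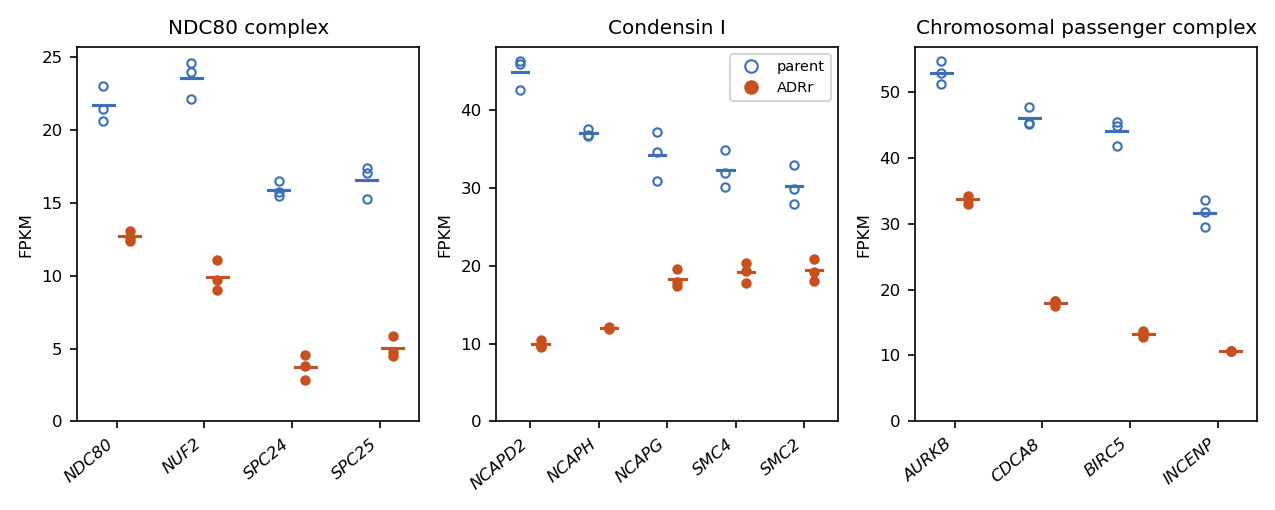
The panels plot FPKM (y axis, starting at 0) for the genes of the NDC80 complex, condensin I and the chromosomal passenger complex, with open circles for the 3 parent libraries, filled circles for the 3 ADRr libraries and a line at each mean. NCAPD2 is the highest condensin I gene in parent cells (44.96 FPKM) and the lowest in ADRr cells (9.91 FPKM).

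The 4 genes of the inner kinetochore had log2 fold changes between -1.13 and -0.52. CENPA, the histone H3 variant that defines the centromere, was read at 25.1, 24.6 and 27.4 CPM in parent and 15.1, 17.2 and 15.2 CPM in ADRr libraries. CENPU, CENPN and CENPK belong to the constitutive network built on that chromatin. CENPU fell to 45.6% of the parent level (88.6, 97.8 and 87.2 CPM against 42.5, 40.1 and 42.0 CPM), CENPN to 53.1% (42.9, 39.7 and 38.0 CPM against 22.9, 17.4 and 23.5 CPM) and CENPK to 69.8% (51.7, 61.2 and 52.3 CPM against 36.5, 38.7 and 39.9 CPM). CENPN shares 22.8% of its exon bases with other genes. The 2 large proteins of the outer corona fell to 58.8% and 64.2%. CENPF, with the highest parent level per length of the group (37.0 ± 2.50 FPKM, SD, n = 3), went from 445, 470.1 and 412 CPM to 262, 241 and 277 CPM, and the kinetochore motor CENPE went from 111, 108 and 94.5 CPM to 68.9, 60.9 and 71.0 CPM.

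SKA1 and SKA3 belong to one complex that keeps kinetochores on shrinking microtubule ends, and they moved in opposite directions. SKA3 fell from 62.4, 69.2 and 57.3 CPM to 39.1, 34.2 and 40.1 CPM, 60.2% of the parent level. SKA1 (ENSG00000154839, chromosome 18, 50374995 to 50394173, plus strand) rose from 21.0, 24.1 and 19.1 CPM to 30.5, 29.7 and 29.3 CPM, 139.6% (log2 fold change 0.48 ± 0.09, SE, n = 3 per group, edgeR adjusted p = 9.68e-05). Every ADRr library of SKA1 lay above every parent library. SKA2, the third subunit and no member of the 54, was lower, at 123, 130.0 and 116 CPM against 65.3, 64.3 and 67.2 CPM.

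The 4 genes of the chromosomal passenger complex, which corrects faulty attachments and later acts in cytokinesis, all fell, with a median log2 fold change of -1.46. BIRC5, survivin, which brings the complex to the centromere, fell the most, from 176, 163 and 175 CPM to 52.0, 53.4 and 49.4 CPM (log2 fold change -1.73 ± 0.06, SE, edgeR adjusted p = 8.12e-17). The scaffold INCENP went from 145, 135 and 153 CPM to 48.8, 48.8 and 48.3 CPM and CDCA8, borealin, from 114, 120.3 and 114 CPM to 45.7, 46.2 and 44.0 CPM. AURKB, the kinase of the complex, fell least of the 4, from 121, 117 and 125 CPM to 77.0, 78.2 and 75.1 CPM, 63.4% of the parent level beside 30.1% for BIRC5, 33.7% for INCENP and 39.1% for CDCA8. Per length, AURKB stood first in both groups, with 52.9 ± 1.69 FPKM in parent and 33.6 ± 0.583 FPKM in ADRr cells (SD, n = 3), and INCENP last, with 31.6 ± 2.02 FPKM and 10.7 ± 0.0399 FPKM.

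Among the 8 spindle genes 7 fell and HMMR was not called, with a median log2 fold change of -1.07. NUSAP1, a microtubule bundling protein of the central spindle, fell the most, from 18.7, 21.2 and 18.7 CPM to 5.33, 6.42 and 5.51 CPM (log2 fold change -1.77 ± 0.12, SE, edgeR adjusted p = 1.70e-11). Its level is uncertain, since 62.2% of its exon bases are also annotated to AC087721.2 on the same strand, a gene with 0 counts in every library. TPX2, which activates Aurora A on the spindle and had the highest parent level of the group (129 ± 7.40 FPKM, SD, n = 3), fell from 469.8, 506 and 453 CPM to 289.9, 286 and 293 CPM, 60.8%. DLGAP5 (HURP), a stabiliser of kinetochore fibres, went from 178, 203 and 175 CPM to 72.7, 66.6 and 72.1 CPM. GTSE1, which restrains the microtubule depolymerase MCAK and also binds p53, went from 108, 101 and 114 CPM to 41.8, 40.6 and 41.2 CPM. Both stood at nearly the same share of the parent level, 38.1% and 38.2%.

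ASPM, which gathers microtubules at the spindle poles, fell to 43.5% of the parent level, with 198, 211 and 189.7 CPM in parent and 86.5, 88.1 and 85.5 CPM in ADRr libraries. CKAP2, a microtubule nucleating protein, fell to 52.0%, with 120.4, 124 and 115 CPM and 60.1, 58.4 and 68.3 CPM. CKAP5 (chTOG), the microtubule polymerase that cells also use outside mitosis, fell to 65.5%, with 511, 532 and 452 CPM and 332, 310.0 and 338 CPM. HMMR (ENSG00000072571, chromosome 5, 163460203 to 163491945, plus strand), the hyaluronan-mediated motility receptor, which is also a spindle protein, was read at 21.3, 19.1 and 20.6 CPM and 21.5, 21.5 and 22.8 CPM. All ADRr libraries lay above all parent libraries, but by little, and its log2 fold change of 0.11 had an interval from -0.08 to 0.30 (edgeR adjusted p = 0.295).

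All 5 genes of condensin I, the ring complex that compacts mitotic chromosomes, fell, with a median log2 fold change of -0.91. NCAPD2 (ENSG00000010292, chromosome 12, 6493356 to 6531955, plus strand), a HEAT-repeat subunit, had both the highest parent level of the complex and the largest decrease of all 54 genes. It was read at 304, 307 and 283 CPM in parent and 63.2, 64.0 and 69.2 CPM in ADRr libraries, a log2 fold change of -2.19 ± 0.06 (SE, n = 3 per group, edgeR adjusted p = 7.23e-19), or 22.0% of the parent level. NCAPH, the kleisin that closes the ring, fell from 123, 126 and 124 CPM to 39.5, 40.7 and 40.03 CPM, and NCAPG, the other HEAT-repeat subunit, from 173, 187 and 156 CPM to 98.0, 87.4 and 89.5 CPM. NCAPG shares 33.1% of its exon bases with LCORL on the opposite strand, which was lower too. The ATPases SMC2 and SMC4, which condensin II also uses, fell the least, SMC4 from 275, 302 and 261 CPM to 166, 154 and 175 CPM and SMC2 from 197, 218 and 185 CPM to 127, 119 and 138 CPM. SMC4 shares 25.6% of its exon bases with other genes. The order of levels per length was turned around. In parent cells it was NCAPD2 (45.0 FPKM), NCAPH (37.1), NCAPG (34.2), SMC4 (32.3) and SMC2 (30.3), and in ADRr cells SMC2 (19.4 FPKM), SMC4 (19.2), NCAPG (18.3), NCAPH (12.0) and NCAPD2 (9.91). NCAPD2 stood above and then below the other 4 in every library, and NCAPG, SMC4 and SMC2 overlapped between libraries in both groups.

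Of the 5 cytokinesis genes 4 fell and ECT2 was not called, with a median log2 fold change of -1.18. ANLN, anillin, the scaffold of the contractile ring, had the highest parent level of the group (93.5 ± 7.62 FPKM, SD, n = 3) and fell from 569, 623 and 530.1 CPM to 243, 229 and 242 CPM, 41.5% (edgeR adjusted p = 5.35e-15). CIT, citron kinase, which acts at the midbody, fell from 145, 148 and 149.7 CPM to 65.6, 60.7 and 69.4 CPM. RACGAP1, the GTPase-activating protein of centralspindlin, went from 149, 149 and 131 CPM to 72.5, 74.6 and 73.2 CPM, 51.3% of the parent level. ECT2, the exchange factor that RACGAP1 recruits to the cell equator, was read at 201, 214 and 187 CPM in parent and 177, 163 and 172 CPM in ADRr libraries, with no overlap. Its log2 fold change of -0.23 ± 0.06 passed the test on p (edgeR adjusted p = 0.00110) but not the required fold, and without parent replicate 3 it was -0.28 and ECT2 was called lower.

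PRC1, which bundles antiparallel microtubules between the separating chromosomes, had the largest decrease of the group (log2 fold change -1.29 ± 0.32, SE, edgeR adjusted p = 0.00107), but at the lowest level of all 54 genes. It was read at 2.16, 2.59 and 3.36 CPM in parent and 1.06, 1.53 and 0.763 CPM in ADRr libraries. Of its exon bases 58.4% are shared, nearly all with the same-strand gene AC068831.7, which held 269, 212 and 236 counts in parent and 49, 55 and 56 counts in ADRr libraries. How reads in the shared bases were assigned is not given in the sources used here, so the level of PRC1 is uncertain. On log2(FPKM + 1) with no filter its difference was -0.30. Without PRC1 and NUSAP1, the 2 members sharing more than 50% of their exon bases, the median log2 fold change of the other 52 was -0.95. No exon base was shared in 32 members, and annotated pseudogene copies of a member held at most 0.216% of its counts.

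Partner genes were compared within libraries, through the log2 ratio of their counts, for 8 pairs. With 3 libraries against 3 an exact two-sided permutation test cannot give a p below 0.1, and 7 of the 8 pairs reached it because their libraries did not overlap (p = 0.114 adjusted over the 8 pairs by Benjamini-Hochberg). The pairs were chosen with earlier results of these data known, and each shift restates the fold changes of its 2 genes. These p-values therefore add no separate support, and the ratios are given as a description. The ratio of BUB1B to BUB3 shifted the most, from -1.11, -0.99 and -1.14 in the parent to -2.60, -2.61 and -2.41 in the ADRr libraries on the log2 scale. This is a difference of -1.46. The ratio of AURKA to its cofactor BORA went from 4.11, 3.82 and 4.06 to 2.69, 2.83 and 2.72, a difference of -1.25. It is uncertain, because BORA shares 37.0% of its exon bases with DIS3 and their reads cannot be told apart there. In condensin, NCAPG over NCAPD2 went the other way, from -0.81, -0.71 and -0.86 to 0.63, 0.45 and 0.37, a difference of 1.28. Securin over separase, PTTG1 over ESPL1, shifted by 0.86, from 0.03, 0.09 and 0.06 to 0.95, 0.91 and 0.91.

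The remaining shifts were smaller. CDC25C over CDC25B differed by -0.75, ASPM over CKAP5 by -0.59 and CDCA8 over INCENP by 0.21. CCNB1 over its kinase CDK1 measured 0.77, 0.45 and 0.59 in the parent and 0.67, 0.82 and 0.57 in the ADRr libraries, which overlapped. Its difference of 0.08 was within the spread between libraries (exact permutation p = 0.5).

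Each of the 54 genes was also set against the 50 tested genes around it, 25 on each side, or fewer at a chromosome end. The 54 genes lie on 20 chromosomes. Their neighbourhoods had medians of the log2 fold change between -0.57 (around CCNB2) and 0.66 (around CENPA), with a median over the 54 of 0.04. The fold change of 53 of the 54 genes was below the median of their own neighbours, with a median difference of -1.03, and HMMR was the exception at 0.11 against 0.02. The same share over all tested genes was not computed. This count follows in large part from the low fold changes of the 54 genes themselves. The 2 genes that rose lay among genes that were mostly higher. The neighbours of BUB3 on chromosome 10 had a median of 0.63 and 66% of them were called higher, and those of SKA1 on chromosome 18 likewise had a median of 0.63 and 66% called higher. UBE2C on chromosome 20 had a fold change of -0.06 among neighbours with a median of 0.45, and CENPA on chromosome 2 fell by 0.71 on the log2 scale where 70% of its neighbours were higher. Around CCNB2, 64% of the neighbours were lower, and CENPU and PRC1 lay in neighbourhoods with medians of -0.53 and -0.41. With 10 neighbours on each side in place of 25 the median around UBE2C was 0.10, that around HMMR -0.19 and that around SKA1 1.10. The part that the neighbourhood had in the change of a gene was not tested.

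Other genes of the same pathways were taken from lists of 97 genes, of which all 97 were tested. Of these, 63 (64.9%) fell, 14 (14.4%) rose and 20 did not pass the test, with a median log2 fold change of -0.54. Among all tested genes 29.6% were called lower and 29.2% higher, with a median of -0.01. In 5 of the 8 lists at most 1 gene rose. The inner kinetochore and CENPA loading list had 13 of 17 genes lower and 1 higher (median -0.57). CENPQ fell from 34.6, 41.8 and 32.7 CPM to 13.3, 13.3 and 15.2 CPM and CENPC from 32.8, 39.0 and 29.9 CPM to 15.8, 12.4 and 15.4 CPM, and MIS18A, which licenses CENPA loading, rose from 24.996, 18.9 and 24.5 CPM to 28.9, 30.7 and 27.9 CPM, a log2 fold change of 0.35 that without parent replicate 2 was 0.23 and was not called. The outer kinetochore and checkpoint list had 10 of 14 lower and the other 4 not called (median -0.47), led by ZWINT, an adaptor of the KNL1 scaffold, at 192, 195 and 191 CPM against 64.7, 72.4 and 70.0 CPM. Other entry genes fell in 11 of 12 cases (median -0.89). CCNF, cyclin F, went from 56.2, 53.1 and 57.4 CPM to 18.4, 20.5 and 16.7 CPM and HASPIN, the kinase that places the passenger complex, from 29.1, 34.7 and 28.2 CPM to 15.1, 13.5 and 12.2 CPM. All 3 subunits particular to condensin II fell (median -1.18), with 248, 246 and 233 CPM against 106, 108 and 107 CPM for NCAPD3, 279.6, 299 and 266 CPM against 124, 121 and 122 CPM for NCAPG2 and 56.4, 50.2 and 54.1 CPM against 28.4, 29.8 and 29.5 CPM for NCAPH2. Of 11 regulators of mitotic gene transcription 6 fell and the other 5 were not called (median -0.39). MYBL2, which joins the MuvB core at CHR motifs, went from 178, 163 and 167 CPM to 44.2, 44.4 and 39.2 CPM, and RBL1 (p107), a pocket protein of the DREAM complex, from 87.7, 93.5 and 80.9 CPM to 41.0, 40.1 and 47.1 CPM.

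In the other 3 lists, of 10 to 17 genes each, 4 or 5 genes rose, where 29.2% of all tested genes were called higher. Of 17 genes of the APC/C and its regulators 9 fell and 5 rose (median -0.30). The APC/C inhibitor FBXO5 (EMI1) went from 68.6, 73.3 and 67.4 CPM to 20.4, 23.2 and 19.5 CPM and the subunit ANAPC15 from 12.1, 9.98 and 12.1 CPM to 6.45, 6.05 and 5.999 CPM, while the subunit ANAPC10 rose from 3.85, 4.36 and 3.24 CPM to 6.001, 6.23 and 6.71 CPM. Of 13 cohesin genes 6 fell and 4 rose (median -0.06). CDCA5, sororin, went from 225, 232 and 237 CPM to 82.0, 79.2 and 73.8 CPM and SMC1A from 405, 419 and 394 CPM to 173, 162 and 181 CPM, whereas the acetyltransferase ESCO1 rose from 25.4, 24.6 and 22.8 CPM to 49.1, 42.6 and 47.7 CPM. Of 10 other cytokinesis genes 5 fell and 4 rose (median -0.31). The abscission protein CEP55 went from 216, 242 and 200.2 CPM to 102, 99.4 and 104 CPM and ARHGAP11A from 101, 114 and 101 CPM to 64.1, 66.7 and 65.7 CPM.

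**Figure D3:**
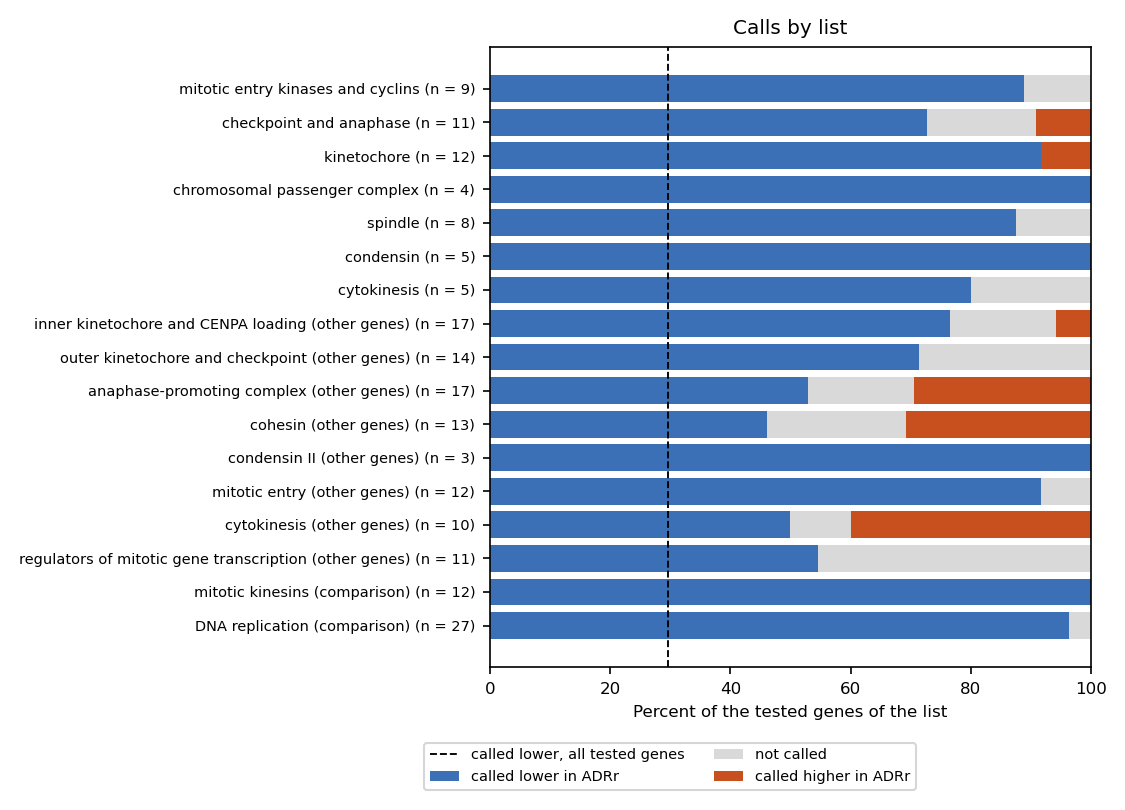
Horizontal bars give the percent of the tested genes of each list that were called lower (blue), not called (grey) or called higher (orange) in ADRr cells, with the number of genes in brackets, for the 7 role groups of the 54 genes, 8 lists of other genes and 2 lists for comparison. The dashed line marks the 29.6% of all tested genes that were called lower, and every bar passes it.

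The lists most like the 54 genes were the mitotic kinesins and the genes of DNA replication. All 12 kinesins fell, with a median log2 fold change of -1.22, and 26 of 27 replication genes fell, with a median of -1.23. The share called lower among all tested genes was 29.6%. The 54 mitotic genes had a median of -0.96. Whether the lists differ was not tested. KIF20A, the kinesin of the central spindle, went from 143, 150.3 and 144 CPM to 14.4, 14.3 and 11.7 CPM, a larger decrease than that of any of the 54 genes, and KIF15 from 64.1, 71.6 and 63.5 CPM to 16.2, 17.9 and 15.6 CPM. ORC1 of the origin recognition complex went from 24.2, 24.3 and 26.6 CPM to 4.67, 4.28 and 4.69 CPM and MCM5 of the replicative helicase from 134, 127 and 143 CPM to 28.8, 28.9 and 29.4 CPM. The parent level of the 54 genes, with a median of 29.9 FPKM against 12.4 FPKM in ADRr cells, had a Spearman correlation of -0.06 with their fold change, over the 54 genes and with the same libraries in both.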

How the data were processed

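RNA-seq was carried out by the authors on 3 libraries of parent MDA-MB-231 cells and 3 of ADRr cells. According to the study, poly(A) RNA was taken, sequencing was paired-end on a NovaSeq instrument, HISAT2 mapped the reads and featureCounts counted them. The submitters' processing notes give HISAT2 2.0.5, featureCounts 1.5.0-p3, fastp and GRCh38. The strand setting is not given in the sources used here, and the sample records name another library kit and RNA amount than the methods. The authors deposited raw counts as whole numbers, together with FPKM values computed from them and the gene lengths. Names, identifiers and lengths of all 58735 genes were those of GENCODE 29.

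The count test was edgeR 4.0.16 in R 4.3.3. Genes kept by filterByExpr were normalized with TMM and compared between all 3 parent and all 3 ADRr libraries by the quasi-likelihood test with Benjamini-Hochberg adjustment, with calls made where the adjusted p did not exceed 0.05 and the fold change reached 1.2. The SE of a log2 fold change was its size divided by the square root of the F statistic. The alternatives were DESeq2 1.42.0, its size factors or library size alone in edgeR, all genes with a count, a minimum of 10 counts per library, calls on the adjusted p without a fold, calls at 1.2 on the log2 scale, glmTreat, limma-trend 3.58.1 on log2(FPKM + 1) or log2(FPKM + 0.1) with a mean FPKM of at least 0.5, the first also unfiltered, the replicate number as a block, and each library left out. For partner ratios they were FPKM, 0.5 added counts and each library left out, for promoters the last 150 bases of the window, and for neighbours 10 genes on each side. The members left out for shared exon bases were chosen after seeing the data. The count test was also tested on simulated data.

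The 54 genes, the lists and the pairs were chosen with earlier results of these data known. All 54 genes are named, and values in every library are given for, in each role group, the largest decrease, the highest parent FPKM, genes not called lower and genes whose call changed under an alternative, and here also for the remaining members. Of each other list the 2 largest decreases and the largest increase among called genes are named, and all genes of lists with 3 or fewer; the largest increase among the other cytokinesis genes is not reported here. Promoter sequences are RefSeq's (GRCh38.p14), matched by symbol. Exon overlaps were computed from GENCODE 29. Total counts ranged from 15983985 to 18272314, and pairs of libraries within a group differed by more than sampling noise.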

Additional observations from a re-analysis of the deposited data

How the results depend on the processing

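The count of 47 lower and 2 higher genes among the 54 held with DESeq2, its size factors, library size, no filter, 10 counts in every library, glmTreat and every single library left out except parent replicate 3, without which ECT2 made it 48. With the adjusted p alone ECT2 was also called, at -0.23. On filtered FPKM 46 were lower, since PRC1 fell under the filter. No called gene reversed its direction, and BORA, which was not called, changed sign between -0.02 and 0.10. With a threshold of 1.2 on the log2 scale, by its construction, 972 of all genes were lower and 1114 higher, and of the 54 genes 20 and 0. That left 4 entry, 2 checkpoint and anaphase, 3 kinetochore, 3 passenger complex, 4 spindle, 2 condensin and 2 cytokinesis genes. Of the other lists it left 2 inner and 1 outer kinetochore, 1 APC/C, 2 cohesin, 1 condensin II, 1 entry and 1 regulator gene, 0 cytokinesis genes, 7 kinesins and 15 replication genes. On log2(FPKM + 1) with no filter the median of the 54 was -0.90, where the added 1 shrinks the change of low genes. Leaving out each library in turn gave medians from -1.02 to -0.94. MIS18A lost its call with glmTreat, on unfiltered FPKM and without parent replicate 2. In the last 150 bases of the promoters TTTGGCGC was in 0% of the windows of the 54 genes, and TTTGAA in 59.6%, against 3.73% of tested genes. With 10 neighbours on each side 53 of the 54 genes again lay below their neighbours.

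A replicate block gave 47 lower and 2 higher among the 54 genes and a median of -0.96. Libraries with the same number did not deviate together (correlations of 0.01, -0.02 and -0.05), so no pairing by number was seen. With 3 libraries per group these correlations cannot decide whether the libraries were prepared in pairs. Limits are the 3 libraries per group, ADRr libraries that share a single label with the number of clones not stated, and exon bases shared with other genes. PRC1 had the fewest counts, and its estimate carries the widest error of the 54.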
